A study of Mus musculus with 26 samples.

Results

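Open chromatin of D1 medium spiny neurons in cocaine relapse (CC) was set against that of D1 neurons after chronic cocaine and a long withdrawal (CS). The 2 peak lists hold 77070 CC and 48443 CS peaks on chromosomes 1 to 19 and X, 125513 of the 399299 peaks of the series. Each list stands for 4 libraries, so 8 of the 26 libraries of the series are used. A peak is called shared when it has at least 1 bp in common with a peak of the other list, and CC-only or CS-only when the other list has no peak within 1 kb of it. Peaks that lie closer than 1 kb without touching are called near.

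ATAC-seq was used, in which a transposase cuts accessible DNA and leaves sequencing adapters, so that pile-ups of cuts mark open regions such as promoters and enhancers. Both groups are nuclei of D1 medium spiny neurons (MSNs) from mouse brain, and the series title names the nucleus accumbens. The remaining groups are D1 and D2 MSNs at baseline (SS) and after acute cocaine (SC), and D2 MSNs in CS and CC. The CC and CS animals had both received cocaine. Dose, timing, strain, sex, age, the way nuclei of each cell type were obtained and any pooling of animals are not given in the sources used here. Each group has 1 peak list with no value per library, so no replicate error and no test between CC and CS could be had. Every difference below describes these 2 lists, and the ranges in parentheses are 95% binomial intervals (exact, Clopper-Pearson), which take in counting error alone.

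D1 MSNs carry the dopamine receptor Drd1, whose signalling raises cAMP, and send their axons along the direct pathway of the basal ganglia, while D2 MSNs carry Drd2 and form the indirect pathway. In most cells, CpG-rich promoters are open whatever the state of the cell, whereas enhancers in introns and between genes vary with cell type and with activity. In rodents, cocaine raises dopamine in the nucleus accumbens and induces activity genes such as Fos in D1 MSNs.

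Promoter sequences under peaks of each set are shown because the sets differed in their median number of CpG dinucleotides, as described with the promoter windows below, though single promoters range widely. Each line is the RefSeq promoter window of a gene on its own strand (GRCm38, the assembly of mm10), from 250 bp before to 50 bp after the start, with CpG in capitals. Capsl (chr15:9435778-9436077, 6 CpG), Henmt1 (chr3:108940307-108940606, 31 CpG) and Herc6 (chr6:57580742-57581041, 4 CpG) were touched by strong CC-only peaks, that of Henmt1 only at the end of its window. Atf7ip2 (chr16:10192656-10192955, 17 CpG) and Adap2 (chr11:80153912-80154211, 18 CpG) were touched by the strongest CS-only promoter peaks that have a window. AU041133 (chr10:82127763-82128062, 10 CpG) carried the strongest shared peak that has a gene, and Arpp21 (chr9:112185900-112186199, minus strand, 11 CpG), a striatal phosphoprotein gene, had a CC-only peak at this internal start.
Capsl: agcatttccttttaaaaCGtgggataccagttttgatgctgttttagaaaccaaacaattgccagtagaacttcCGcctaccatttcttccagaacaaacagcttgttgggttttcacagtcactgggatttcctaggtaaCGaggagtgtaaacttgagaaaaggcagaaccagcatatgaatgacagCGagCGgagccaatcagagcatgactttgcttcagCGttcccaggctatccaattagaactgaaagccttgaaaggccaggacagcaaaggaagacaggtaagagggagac
Henmt1: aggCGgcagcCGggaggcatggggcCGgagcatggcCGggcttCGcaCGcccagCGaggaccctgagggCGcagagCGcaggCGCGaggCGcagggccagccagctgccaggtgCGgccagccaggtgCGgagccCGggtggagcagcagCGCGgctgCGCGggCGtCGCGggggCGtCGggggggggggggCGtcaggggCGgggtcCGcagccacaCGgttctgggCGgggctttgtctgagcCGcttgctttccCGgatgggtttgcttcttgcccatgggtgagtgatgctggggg
Herc6: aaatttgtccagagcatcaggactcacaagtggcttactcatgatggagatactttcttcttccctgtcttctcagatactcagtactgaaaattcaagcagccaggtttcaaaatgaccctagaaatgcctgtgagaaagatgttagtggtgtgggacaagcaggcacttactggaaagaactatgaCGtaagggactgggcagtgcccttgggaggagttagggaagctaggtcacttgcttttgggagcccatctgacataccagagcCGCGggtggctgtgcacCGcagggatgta
Atf7ip2: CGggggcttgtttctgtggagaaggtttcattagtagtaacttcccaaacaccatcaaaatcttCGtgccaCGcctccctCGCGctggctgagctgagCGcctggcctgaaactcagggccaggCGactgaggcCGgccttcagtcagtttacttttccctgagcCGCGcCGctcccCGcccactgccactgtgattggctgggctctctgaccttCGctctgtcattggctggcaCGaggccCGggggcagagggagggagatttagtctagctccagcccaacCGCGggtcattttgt
Adap2: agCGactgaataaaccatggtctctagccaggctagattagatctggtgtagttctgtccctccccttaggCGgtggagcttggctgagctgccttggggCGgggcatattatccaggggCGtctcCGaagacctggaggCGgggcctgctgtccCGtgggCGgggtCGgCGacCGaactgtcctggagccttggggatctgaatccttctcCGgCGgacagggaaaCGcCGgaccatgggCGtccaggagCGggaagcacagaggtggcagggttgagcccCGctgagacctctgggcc
AU041133: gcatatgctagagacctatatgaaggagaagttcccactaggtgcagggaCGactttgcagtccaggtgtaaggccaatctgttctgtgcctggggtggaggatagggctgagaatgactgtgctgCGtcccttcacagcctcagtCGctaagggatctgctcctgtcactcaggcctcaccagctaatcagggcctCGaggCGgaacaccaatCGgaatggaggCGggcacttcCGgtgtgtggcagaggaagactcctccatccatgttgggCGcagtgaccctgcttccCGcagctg
Arpp21: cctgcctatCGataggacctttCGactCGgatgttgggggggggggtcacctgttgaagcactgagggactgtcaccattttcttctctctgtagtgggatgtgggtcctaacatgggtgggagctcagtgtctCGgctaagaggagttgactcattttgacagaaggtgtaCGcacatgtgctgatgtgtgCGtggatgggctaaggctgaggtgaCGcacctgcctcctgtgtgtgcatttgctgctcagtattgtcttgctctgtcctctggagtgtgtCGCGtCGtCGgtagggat

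The lists differ in length, and list length bears on the counts below. The CC peaks covered 42.3 Mb and the CS peaks 24.9 Mb, with 23.2 Mb in both (54.8% of the CC and 93.1% of the CS length). A step that divides the commonest fold value of a list into whole parts was taken as the worth of 1 read over background. It was 0.191 in CC, where 30.0% of peaks lay on it, and 0.222 in CS, where 22.7% did. For peaks on this step it would correspond to a background pileup of 4.23 reads in CC and 3.50 in CS. Most peaks of both lists did not lie on it, and their background was not estimated. Of 37680 pairs made of 1 CC and 1 CS peak, 85.8% were wider in CC, with median widths of 684 bp in CC and 579 bp in CS. Read totals were not used here. Therefore the main results are also given with both lists cut to their 48443 peaks of lowest q-value, and values with no such mention are of the full lists. That cut leaves the CS list whole, so CC-only peaks at equal length are a part of those in the full lists. CS-only peaks at equal length include many that touch a weaker peak of the uncut CC list. A technical feature also sets lists apart. CC, CS, D1 SC and D2 CS hold 208, 189, 99 and 118 peaks on patch and unplaced sequences, whereas D1 SS, D2 CC, D2 SC and D2 SS hold 36, 39, 43 and 50. CC and CS lie on the same side of this split.

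Marker genes of D1 and of D2 MSNs both had peaks in both lists. Of 10 D1 MSN markers the CC list named 10 and the CS list 9, and of 10 D2 MSN markers 9 and 8. Drd1 had a promoter peak with a fold enrichment of 3.65 in CC (chromosome 13, 54054882 to 54056055, mm10) and of 3.77 in CS. Fold enrichment is the authors' ratio of a peak over the background of the peak caller and was not scaled between lists. The D1 peptide genes Tac1, which encodes substance P, and Pdyn, which encodes dynorphin, had shared promoter peaks with folds of 4.97 and 4.61 in CC and of 5.43 and 4.52 in CS. However, Drd2 had 4 peaks in each list, all shared, with folds of 3.60 to 6.25 in CC and 3.98 to 4.72 in CS. The enkephalin gene Penk, typical of D2 MSNs, had a shared promoter peak in both lists. A peak at these genes therefore does not tell D1 from D2 neurons. Markers of cells other than MSNs were looked up too: the CC list named 41 of 61 and the CS list 34, and at equal length 28 and 34. These markers had 110 CC and 72 CS peaks. No peak of either list was assigned to the glial markers Aqp4, Mobp, Olig2, Sox10, Tmem119, Aif1 and Trem2. The part of such cells in the results was not tested.

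Most CS peaks were found in CC, whereas a large share of CC peaks had no CS peak nearby. CC-only peaks numbered 30651, 39.8% of the CC list (39.4 to 40.1%), and CS-only peaks 2117, 4.37% of the CS list (4.19 to 4.56%). Another 42500 CC peaks (55.1%) were shared, and 45321 CS peaks (93.6%) were. Near peaks made up 5.08% of the CC list and 2.07% of the CS list. At equal length the gap between the lists shrank. CC-only peaks then made up 20.7% (20.3 to 21.1%) of the 48443 CC peaks and CS-only peaks 14.6% (14.3 to 14.9%) of the 48443 CS peaks. With only the 20000 peaks of lowest q-value kept on each side, the shares were 15.9% in CC and 14.6% in CS.

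In the full lists, peaks found in 1 list alone were narrower and weaker than shared peaks. CC-only peaks had a median width of 274 bp and a median fold of 3.89, and shared CC peaks 675 bp and 5.74. CS-only peaks had a median width of 229 bp and a median fold of 3.56, and shared CS peaks 539 bp and 4.80. At equal length, CC-only peaks had a median width of 508 bp and a median fold of 4.82, and CS-only peaks 246 bp and 3.63. That cut removed the CC peaks of highest q-value and no CS peak, so these sets were not matched in strength. Their median q-values were 6.46e-11 in CC-only and 1.85e-05 in CS-only peaks. The part of the cut in this contrast was not tested. Among the 20000 peaks of lowest q-value, CC-only peaks had a median fold of 7.27, near the 7.51 of shared CC peaks, and CS-only peaks one of 5.47, against 6.74 for shared CS peaks. The highest fold of a CC-only peak was 9.95, and that of a CS-only peak 7.78. Around the limit of 1 kb, 301 CC peaks lay inside it by less than 200 bp (median fold 3.28) and 251 lay outside it by at most 200 bp (3.41). In the CS list 41 peaks (median fold 3.17) lay just inside and 37 (3.35) just outside.

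CC-only peaks lay mostly in gene bodies and between genes, and CS-only peaks lay nearer to promoters, though less so than shared peaks. The authors class a peak as promoter within 250 bp, 1 kb or 3 kb of a transcription start site (TSS), and the 3 classes are added here. Promoters made up 15.3% (14.9 to 15.7%) of CC-only peaks and 26.1% (24.2 to 28.0%) of CS-only peaks, against 41.7% (41.2 to 42.2%) of shared CC peaks. Within 250 bp of a TSS the shares were 3.94% of CC-only, 8.93% of CS-only and 28.5% of shared CC peaks. Gene bodies held 46.7% of CC-only and 45.8% of CS-only peaks, against 33.2% of shared CC peaks. Intergenic peaks made up 37.9% (37.4 to 38.5%) of CC-only and 28.0% (26.1 to 29.9%) of CS-only peaks, against 25.0% (24.6 to 25.4%) of shared CC peaks.

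The order of the promoter and intergenic shares of the sets was the same at equal length. Promoters then made up 13.6% (12.9 to 14.2%) of CC-only and 27.3% (26.3 to 28.4%) of CS-only peaks, against 43.4% of shared CC peaks. Intergenic peaks made up 41.1% of CC-only and 26.1% of CS-only peaks, against 25.04% of shared CC peaks. The gene-body shares remained close, at 45.3% of CC-only and 46.4% of CS-only peaks. In the full lists, peaks assigned to protein-coding genes made up 51.9% of CC-only and 58.2% of CS-only peaks, against 65.3% of shared CC peaks, and at equal length 48.7% of CC-only and 62.2% of CS-only peaks, against 65.4%. Peaks of lincRNA genes, which make long noncoding RNAs, made up 4.14% of CC-only and 4.63% of CS-only peaks in the full lists, and the order turned at equal length, with 4.399% of CC-only and 3.97% of CS-only peaks.

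**Figure D1:**
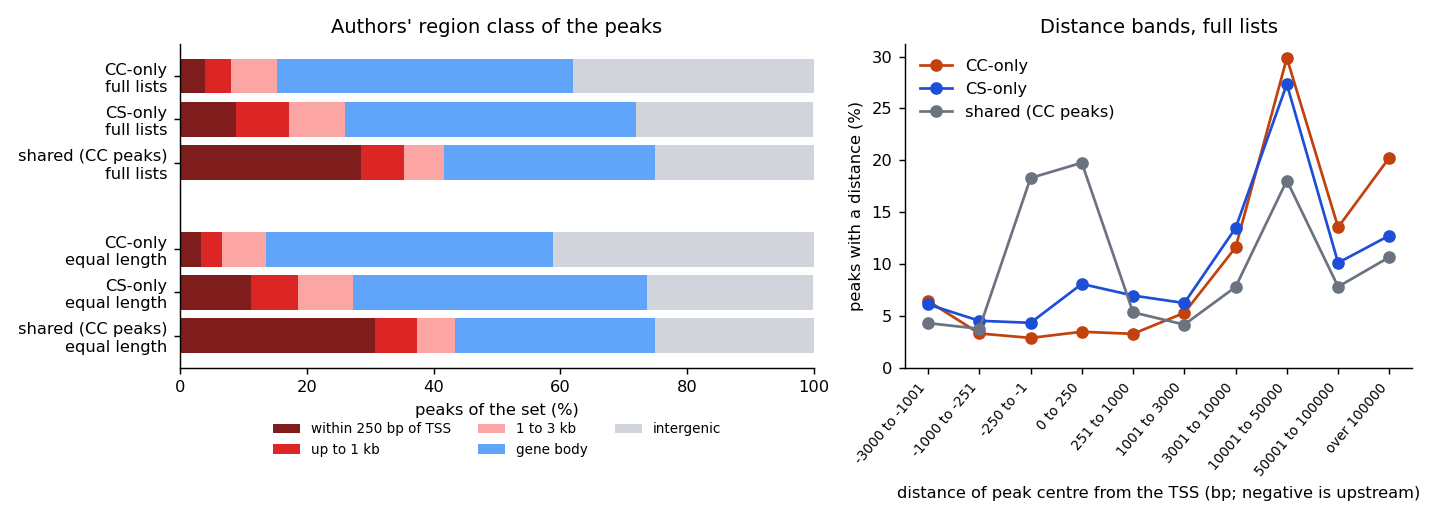
Left, the authors' region classes as a percentage of the peaks of each set, for CC-only, CS-only and shared peaks (counted as CC peaks), in full lists and at equal length; subtelomeric peaks, under 1%, are not drawn. Right, the percentage of peaks with a distance in each band from the TSS in full lists. CC-only peaks have the smallest promoter share, 15.3%, against 26.1% of CS-only and 41.7% of shared CC peaks, and 20.3% of CC-only peaks with a gene lie over 100 kb from its TSS.

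Distances to the TSS followed the same order. The median distance of peaks that the authors assign to a gene was 22322 bp (21449 to 23091) in CC-only and 10100 bp (8517 to 11389) in CS-only peaks, against 1503 bp in shared CC peaks. At equal length the medians were 24476 bp in CC-only and 10219 bp in CS-only peaks. Among gene-body peaks alone, 26.9% of CC-only and 20.0% of CS-only peaks lay over 100 kb from the TSS, against 24.1% of shared CC peaks. Within 3 kb of a TSS, 51.2% of the 4696 CC-only promoter peaks and 41.3% of the 552 CS-only promoter peaks lay upstream of it, against 47.4% of shared CC promoter peaks.

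Intergenic CC-only peaks also lay farther from genes. By the RefSeq table of the same assembly, the median distance to the nearest protein-coding gene was 66.3 kb for 11632 intergenic CC-only peaks and 24.2 kb for 592 intergenic CS-only peaks, against 41.9 kb for shared CC peaks. More than 100 kb from any such gene lay 41.2% (40.3 to 42.1%) of the CC-only and 17.9% (14.9 to 21.2%) of the CS-only peaks, against 31.3% of the shared CC peaks. At equal length these shares were 45.7% of CC-only and 20.8% of CS-only peaks. The strongest intergenic CC-only peak, named after its value was seen, had a fold of 9.95 (chromosome 1, 71419530 to 71420425, mm10) and lay 4.62 kb from Abca12, a lipid transporter gene. The next, with a fold of 9.75 (chromosome 10, 103715223 to 103715868), lay 296 kb from Slc6a15, a neuronal amino acid transporter gene. The strongest intergenic CS-only peak had a fold of 7.78 (chromosome 12, 74804003 to 74804559) and lay 92.7 kb from Kcnh5, a potassium channel gene. This peak was also in the D2 CS list, and the Slc6a15 peak was in 4 other lists.

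Among CC peaks of like strength, promoter peaks were found in CS more often than other peaks. The CC list was split into 10 groups of 7707 peaks by q-value, and all peaks of the strongest group were found in CS. In the fifth group, 71.7% (69.5 to 73.9%) of promoter, 56.5% (54.8 to 58.2%) of gene-body and 50% (48.1 to 51.9%) of intergenic peaks were found in CS. In the weakest group the shares were 18.4% of promoter, 11.2% of gene-body and 8.49% of intergenic peaks. The order promoter, gene body, intergenic held in each of the 9 groups after the strongest. The reverse search gave no such order. In the weakest group of CS peaks, 71.9% (69.5 to 74.2%) of promoter, 72.3% (70.3 to 74.2%) of gene-body and 74.7% (72.3 to 77.0%) of intergenic peaks were found in CC. Promoter peaks had lower folds than intergenic peaks of the same group, with medians of 4.64 and 5.21 in the fifth group of CC, and the part of this difference in the result was not tested.

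**Figure D2:**
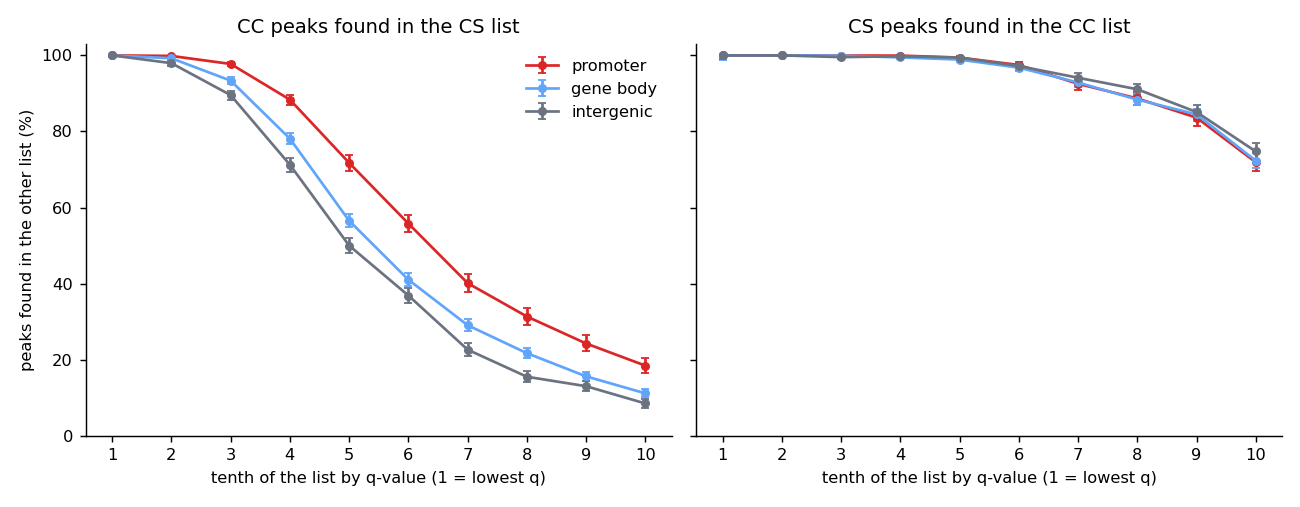
Percentage of CC peaks found in the CS list (left) and of CS peaks found in the CC list (right), in 10 equal groups from the lowest to the highest q-value; points are promoter (3 classes), gene-body and intergenic peaks, and bars are exact 95% intervals for counting error. In the fifth group of the CC list 71.7% of promoter and 50% of intergenic peaks are found in CS, while the classes of the CS list run together down to 71.9 to 74.7% in the last group.

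Most of the strong CC-only peaks were also found in other lists of the series. Of all CC-only peaks, 53.2% were found in D2 CC, 45.3% in D2 SS and 42.6% in D2 SC, but 9.18% in D1 SS, 2.99% in D1 SC and 2.29% in D2 CS. CS-only peaks were found less in every one of these lists except D2 CS, with 22.8% in D2 CC, 19.6% in D2 SS, 15.5% in D2 SC, 2.03% in D1 SS, 1.89% in D1 SC and 4.53% in D2 CS. The lists with the highest shares were also the longest, with 58790 to 68424 peaks, against 27898 to 28568 peaks in the others. They come from 1 or 2 libraries each and hold few patch peaks. D2 CS, a short list of D2 neurons, held 2.29% of the CC-only peaks, close to the 2.99% of D1 SC and below the 9.18% of D1 SS, which has about the same length. The part of list length in these shares was not tested. At equal length, D2 CC held 72.9% of CC-only and 44.9% of CS-only peaks, D2 CS 4.22% and 7.81%, and D1 SS 17.7% and 6.56%. No other list held 11500 CC-only peaks (37.5%), with a median fold of 3.63, and 1379 CS-only peaks (65.1%), with a median fold of 3.56. Of the 1116 CC-only peaks with a fold of at least 6, 93.7% were in another list. CC-only peaks found in some D2 list but in neither D1 SS nor D1 SC made up 51.2%, and such CS-only peaks 30.9%, against 24.6% of shared CC peaks.

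**Figure D3:**
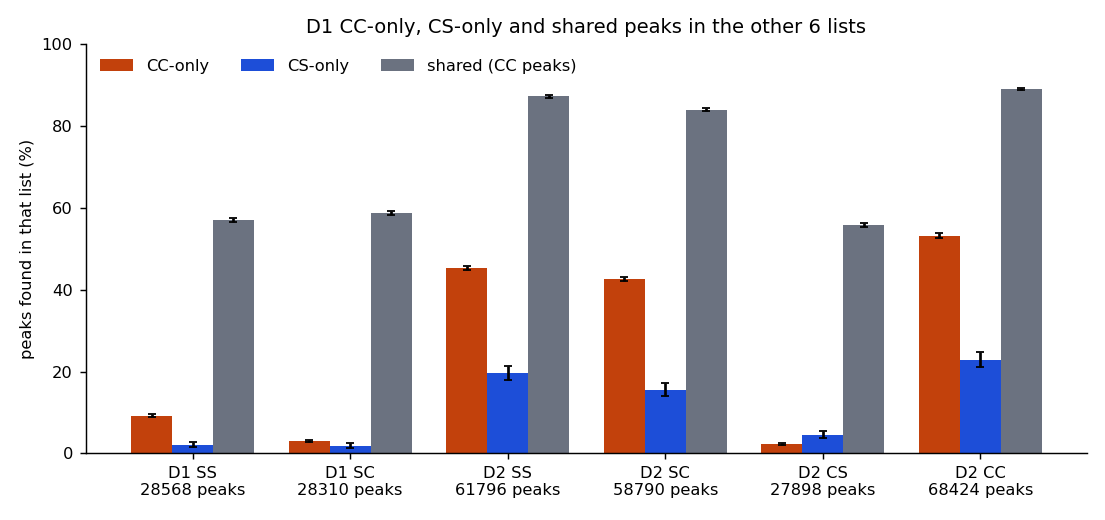
Percentage of CC-only, CS-only and shared peaks (counted as CC peaks) that overlap a peak of each of the other 6 lists, with the number of peaks of that list under its name; bars are exact 95% intervals for counting error. CC-only peaks reach 42.6 to 53.2% in D2 SS, D2 SC and D2 CC and at most 9.18% in D1 SS, D1 SC and D2 CS.

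The strongest peaks of each set are named here gene by gene, and they are not typical of their sets. Of the 10 strongest, taken as 1 per gene, 10 CC-only and 9 CS-only peaks were in another list. No other list held 37.5% of all CC-only and 65.1% of all CS-only peaks. Among CC-only peaks assigned to a gene, the highest fold was 9.75 (q = 1.80e-33) at Gm14748 on chromosome X, 0.776 kb from its TSS, and this peak was in 5 other lists. Next among protein-coding genes came a peak 308 kb into Sntg1, which encodes a syntrophin, with a fold of 9.54 (chromosome 1, 8496060 to 8496820, mm10). Peaks in the body of the adhesion gene Cadm2 (fold 9.18, 247 kb from the TSS), the calcium channel subunit gene Cacna2d1 (8.61, 22.0 kb), the adenosine kinase gene Adk (8.27, 335 kb) and Xkr4 (8.24, 237 kb) followed. Capsl had a CC-only peak 25 bp upstream of its TSS with a fold of 8.42, over the promoter printed above. All 10 of the strongest CC-only peaks, taken as 1 per gene, were in at least 3 other lists, and each of them was in D2 CC, D2 SC and D2 SS.

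The strongest CS-only peaks were lower. Ftl1-ps2, a ferritin pseudogene by its name, had a fold of 7.12 (q = 4.28e-17) 1.99 kb upstream of its TSS and was also in D2 CS. Gene-body peaks followed in Dync1i1, a subunit of the motor dynein (6.09), in Lmbrd1, a lysosomal cobalamin exporter (6.07), and in Cenpe, a mitotic kinesin (5.56). The Lmbrd1 peak (chromosome 1, 24684182 to 24684419) was the 1 of the 10 strongest, taken as 1 per gene, that no other list held. At promoters, Atf7ip2 had a CS-only peak with a fold of 5.12, 87 bp upstream of the TSS, that no other list held. Adap2, a regulator of Arf GTPases, had one with a fold of 5.04 that D2 CS also held.

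At equal length, the 6 strongest CC-only promoter peaks were those of the full lists: Gm14748, Capsl, Igkv2-116, Gm45030, 4930578G10Rik and Igkv3-12-1, with folds of 8.03 to 9.75. The CS-only promoter peaks then included Camsap1, which binds microtubule ends, Blm, a DNA helicase, and Stk33, a kinase (each with a fold of 6.0). Snrnp27, a splicing factor, had a fold of 5.93 and Htr3a, the ionotropic serotonin receptor, one of 5.56 at 27 bp upstream of its TSS. These genes, other than Ftl1-ps2, have a CC peak within 1 kb of the CS peak in the uncut lists. The highest folds of shared peaks with a gene were at AU041133 (16.2), Gm42627 (15.9), Gm4924 (15.4), Zfp97 (15.3) and 2610044O15Rik8 (15.2). Zfp97, a zinc finger gene, and Gm42627 were found in D1 SC and D2 CS and in no other of the 6 lists, the same split as the patch peaks.

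The authors assign 1 gene to each peak outside intergenic space, by the peak's centre. Of 19912 genes named in either list, 8335 (41.9%) had a CC-only peak and 1353 (6.79%) a CS-only peak, and 716 had both. CC-only promoter peaks stood at 3886 genes (19.5%) and CS-only promoter peaks at 536 (2.69%). Named in CC and not in CS were 3151 genes (15.8%), of which 2804 had a CC-only peak. Named in CS and not in CC were 709 (3.56%), of which 355 had a CS-only peak. At equal length, 3790 of 18069 genes (21%) had a CC-only and 3727 (20.6%) a CS-only peak. CC-only promoter peaks then stood at 1260 genes (6.97%), fewer than the 1742 (9.64%) with a CS-only promoter peak. Named in CC and not in CS were then 1308 genes (7.24%), and in CS and not in CC 1600 (8.85%).

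The genes named here for having the most CC-only peaks were, apart from Gm20388, for which no length was matched, over 500 kb long. Beside their counts stands the share of CC-only peaks over all protein-coding genes of that length, 48.9%. Ctnna2, the neuronal alpha-catenin that ties cadherins to actin, had 37 CC-only of 53 CC peaks, against 2 CS-only of 19 CS peaks. Magi2, a synaptic scaffold, also had 37 (of 69), and its 30 CS peaks held no CS-only peak. The teneurin Tenm2 had 32 CC-only of 60 CC peaks, the neurexin Nrxn3 30 of 68, and Dpp6, an auxiliary subunit of potassium channels, 28 of 62. Negr1, an adhesion protein, Nlgn1, the postsynaptic partner of neurexins, and Pde4d, a cAMP phosphodiesterase, had 25 each. Dlg2, a scaffold of the postsynaptic density, Lsamp, an adhesion protein, and Gm20388 had 23 each. In all, 237 genes had at least 10 CC-only peaks, and 236 of them are protein-coding. At equal length 13 genes did, with 16 CC-only peaks each in Ctnna2 and Nlgn1.

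CS-only peaks were few in any gene. Gm20388 had 6 CS-only of 41 CS peaks, and the guanine exchange factor Kalrn, known from dendritic spines, had 5 of 27. The potassium channel gene Kcnh1 had 5 of 16 CS peaks, and the splicing factor gene Rbfox1 4 of 24. The next genes had 3 each, among them the short Gm5535 (16.1 kb), with 3 CS-only of 5 CS peaks. Each of these 4 genes had more CC-only than CS-only peaks in the full lists (23, 19, 14 and 10). The order turned in all 4 at equal length. Gm20388 then had 9 CC-only and 13 CS-only peaks, Kalrn 3 and 11, Kcnh1 1 and 7, and Rbfox1 3 and 9.

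Gene length ran with the share of CC-only peaks. Among peaks of protein-coding genes of up to 10 kb, 15.6% (14.5 to 16.8%) of CC peaks were CC-only, and the share climbed over the 5 length bands to 48.9% (47.5 to 50.3%) in genes over 500 kb. The share of CS-only peaks stayed between 2.68 and 4.33%. At equal length the CC-only share ran from 5.57 to 28.8% over the bands, and the CS-only share lay between 9.68 and 16.2%. Within gene bodies alone, the bands ran in opposite directions: at equal length, CC-only peaks made up 22.7% of CC gene-body peaks in the shortest and 32.2% (30.4 to 34.1%) in the longest genes. CS-only peaks made up 25.9% (20.0 to 32.5%) of CS gene-body peaks in the shortest and 16.03% (14.5 to 17.6%) in the longest genes.

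Gene lists were read against all peaks with a gene name, of which 35.3% were CC-only in CC and 4.203% CS-only in CS, and at equal length 17.0% and 14.4%. The median difference in the number of peaks per gene, CC minus CS, was 0 over all 19912 genes. Among D1 MSN markers, 41 of 82 CC peaks (50%) were CC-only and 1 of 37 CS peaks was CS-only, and at equal length 17 of 48 CC peaks (35.4%) were CC-only and 7 of 37 CS peaks (18.9%) CS-only. Ebf1, a transcription factor of D1 MSN development, had 11 CC-only of 18 CC peaks and 6 CS peaks, all shared. Its CC-only peaks lay in the gene body with folds of 3.06 to 6.50, while its promoter peak was shared, at a fold of 5.07 in CC and 4.92 in CS. Reln, an extracellular signalling protein, had 11 CC-only of 21 CC peaks, the zinc finger factor Zfp521 8 of 15, and Eya1 7 of 10. At equal length the CC-only and CS-only peaks numbered 8 and 0 in Ebf1, 4 and 3 in Reln, 1 and 4 in Zfp521, and 2 and 0 in Eya1. These genes are long: Ebf1 390 kb, Reln 460 kb, Zfp521 286 kb and Eya1 142 kb. Over all protein-coding genes of 200 to 500 kb, 43.7% of CC peaks were CC-only, and 22.9% at equal length. Of the shorter markers, Tac1 and Isl1 had 1 CC-only peak each, and Pdyn and Sfxn1 had none. The part of gene length in the share of the list was not tested. Drd1 had a CC-only peak 2.74 kb upstream of its TSS, with a fold of 2.53. Chrm4, a muscarinic receptor gene of D1 MSNs, had 1 CC peak (fold 2.66), which was CC-only, and no CS peak. Among D2 MSN markers, 14 of 39 CC peaks (35.9%) were CC-only and 4 of 27 CS peaks (14.8%) CS-only, and at equal length 17.9% of CC peaks were CC-only and 14.8% of CS peaks CS-only. The adenosine receptor gene Adora2a had 2 CC-only promoter peaks, with folds of 3.10 and 3.69, and no CS peak. The 4 CS-only peaks lay at Penk, with 1 of promoter class, and at Ptprm, with 3. Ptprm also had 7 CC-only peaks.

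The 12 genes common to all MSNs had a high share of CS-only peaks at equal length. In the full lists 81 of their 202 CC peaks (40.1%) were CC-only and 7 of 119 CS peaks (5.88%) CS-only. At equal length 16 of 96 CC peaks (16.7%) were CC-only and 36 of 119 CS peaks (30.3%) CS-only, against 14.4% of all named CS peaks. Adcy5, the main striatal adenylyl cyclase, had 0 CC-only and 7 CS-only peaks at equal length. Arpp21 had 2 CC-only and 7 CS-only peaks, and the phosphodiesterase gene Pde10a had 1 CC-only and 6 CS-only peaks. The transcription factor genes Bcl11b and Foxp1 had 2 and 3 CC-only peaks and 4 CS-only peaks each. Most of these CS peaks touch a CC peak that the cut removed, since in the full lists Adcy5 had 5 CC-only and 1 CS-only peak and Arpp21 9 and 2. Ppp1r1b, which encodes DARPP-32, an inhibitor of protein phosphatase controlled by dopamine, had a shared promoter peak with a fold of 4.98 in CC and 5.81 in CS. On its upstream side stood CC-only peaks at -1.83 and -2.13 kb from the TSS, with folds of 2.13 and 2.33.

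The rapid activity genes, other than Ier2 and, by name, Jun, had a promoter peak in both lists. Of 33 CC peaks at 18 rapid activity genes, 4 (12.1%) were CC-only, and none of 28 CS peaks was CS-only. At equal length neither list had such a peak among 24 CC and 28 CS peaks. The median length of these genes is 4.02 kb. Over all protein-coding genes of up to 10 kb, 15.6% of CC peaks were CC-only and 2.68% of CS peaks CS-only, and at equal length 5.57% and 9.68%. The part of gene length in the shares of the list was not tested. Fos, a subunit of AP-1, had 2 promoter peaks in each list, all shared, with folds of 5.45 and 3.23 in CC and 3.75 and 4.37 in CS. The 4 CC-only peaks lay at Npas4 (fold 2.45, 6.44 kb into the gene), at the nuclear receptor genes Nr4a2 (3.61, 1.82 kb upstream) and Nr4a3 (2.94), and at Ier2 (3.22), a promoter peak with no CS peak near it. Jun had a CS and no CC peak by name, but its CS peak overlapped a CC peak that the authors assign to Junos.

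Late activity genes had 10 CC-only of 36 CC peaks (27.8%) and no CS-only peak among 29 CS peaks, and each of them except Nrn1 had a promoter peak in both lists. Bdnf, a neurotrophin with several starts, had 3 of these, with folds of 3.59, 4.57 and 6.50 (the last at chromosome 2, 109722655 to 109723364, mm10, 13.6 kb from its TSS). Its shared promoter peak had a fold of 5.96 in CC and 5.11 in CS. Homer1, a scaffold of metabotropic glutamate receptors, had 2 CC-only peaks 47.2 and 92.0 kb into the gene, with folds of 4.401 and 3.75. Pcsk1, Inhba, Crem, Scg2, Vgf, Sik1, Mmp9 and Gadd45b had none. At equal length 3 of 26 CC peaks (11.5%) of the late activity genes were CC-only and 1 of 29 CS peaks (3.45%) CS-only. Over all named peaks these shares were 17.0% and 14.4%. The median length of the list is 11.6 kb. Over all protein-coding genes of 10 to 50 kb, 24.2% of CC peaks were CC-only, and 9.51% at equal length. The part of gene length was not tested.

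Receptor, channel and adhesion genes carried many CC-only gene-body peaks, and many of these genes are long. The median length is 396 kb for glutamate receptor, 160 kb for GABA-A receptor, 300 kb for potassium channel and 275 kb for calcium channel genes. Over all protein-coding genes of 200 to 500 kb, 43.7% of CC peaks were CC-only, and 22.9% at equal length. For genes of 50 to 200 kb these shares were 37.2% and 18.2%. The part of gene length in the shares below was not tested. Among glutamate receptor genes, 133 of 270 CC peaks (49.3%) were CC-only and 5 of 158 CS peaks (3.16%) CS-only, with a median of 6 more CC than CS peaks per gene. With lists of equal length the shares were 27.1% CC-only and 9.49% CS-only. Grm7, a presynaptic metabotropic receptor, had 18 CC-only of 29 CC peaks. Of the NMDA receptor subunits, Grin2b had 11 CC-only of 25 CC peaks, and Grin1 had none among 3 CC and 4 CS peaks. GABA-A receptor genes had 41 CC-only of 83 CC peaks (49.4%) and no CS-only peak among 50. Gabrb1 held 13 of 24, and at equal length the list held 11 CC-only and 2 CS-only peaks. Potassium channel genes had 124 CC-only of 250 CC peaks (49.6%) and 10 CS-only of 142 CS peaks (7.04%), and Kcnh1 held 5 of the CS-only peaks. At equal length 31.3% of their CC peaks were CC-only and 19.01% of their CS peaks CS-only. Calcium channel genes, with 89 CC-only of 246 CC peaks (36.2%), lay near the share of all named peaks and below that of genes of 200 to 500 kb.

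Synaptic adhesion genes had 380 CC-only of 744 CC peaks (51.1%) and 11 CS-only of 371 CS peaks (2.96%), and 24 of the 26 genes had a CC-only peak. Their median length is 1041 kb, and the share is near the 48.9% of all genes over 500 kb. At equal length 140 of 429 CC peaks (32.6%) were CC-only and 55 of 371 CS peaks (14.8%) CS-only. Nlgn1 had 25 CC-only of 38 CC peaks, the strongest with a fold of 6.31, 370 kb from the TSS, while Nlgn2 and Nlgn3 had none among 1 and 2 CC peaks. Axon guidance genes had 150 CC-only of 313 CC peaks (47.9%), and all 23 of them had at least 1. Their median length is 369 kb, and the share over all protein-coding genes of 200 to 500 kb is 43.7%. At equal length 27.6% of their CC peaks were CC-only and 15% of their CS peaks CS-only. Dcc, a netrin receptor, had 16 of 29, and Unc5c, another, 9 of 12. Dopamine and cAMP signalling genes, with 93 CC-only of 248 CC peaks (37.5%), and zinc finger genes, with 59 of 144 (41.0%), lay closer to the share of all named peaks.

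The 24 cocaine-linked chromatin and transcription regulators had 38 CC-only of 132 CC peaks (28.8%) and 2 CS-only of 90 CS peaks, and at equal length 10 of 89 CC peaks (11.2%) were CC-only and 10 of 90 CS peaks (11.1%) CS-only. In the full lists both CS-only peaks lay in Smad3, a mediator of activin and TGF-beta signals, with folds of 3.05 and 2.79, and Smad3 also had 2 CC-only peaks, with folds of 3.98 and 3.75. Genes of histone H2A.Z and its exchange had 5 CC-only of 24 CC peaks (20.8%) and none among 17 CS peaks. Of these 5, 2 were promoter peaks of Vps72, a subunit of the exchange complex, with folds of 3.01 and 4.16. H2afz and H2afv, which encode H2A.Z, had shared promoter peaks. The median length in this list is 16.8 kb, and 24.2% of CC peaks were CC-only over all protein-coding genes of 10 to 50 kb. Housekeeping genes had 1 CC-only of 25 CC peaks (4%) and 1 CS-only of 28 CS peaks (3.57%). At equal length they had 1 CC-only of 19 CC peaks (5.26%) and 5 CS-only of 28 CS peaks (17.9%), against 14.4% of all named CS peaks. The median length of housekeeping genes is 8.49 kb. Over all protein-coding genes of up to 10 kb, 15.6% of CC peaks were CC-only and 2.68% of CS peaks CS-only, and at equal length 5.57% and 9.68%. The part of gene length in the shares of these lists was not tested.

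Markers of other cell types had about the share of CC-only peaks of all genes. Of their 110 CC peaks 40 (36.4%) were CC-only, against 35.3% of all named CC peaks, and of their 72 CS peaks 4 (5.56%) were CS-only, against 4.203% of all named CS peaks. At equal length 6 of 56 CC peaks (10.7%) were CC-only and 17 of 72 CS peaks (23.6%) CS-only, against 17.0% of CC and 14.4% of CS peaks with a name. The interneuron genes Sst and Pvalb had a single CC-only promoter peak each, with folds of 3.06 and 3.44, and no CS peak. The same held for the astrocyte gene Slc1a3 (4.21), the endothelial gene Cldn5 (3.63) and the cortical factor Tbr1 (2.96). Csf1r, of microglia, had 3 CC-only peaks with folds of 3.14 to 3.75, and Pdgfrb, of pericytes, had 2. Several of these peaks were weak, with q-values of 1.31e-03 at Sst, 8.98e-05 at Pvalb and 4.12e-04 at Tbr1. At equal length Sst, Pvalb, Slc1a3, Cldn5, Tbr1 and Pdgfrb had no CC peak left, and Csf1r had 1. Oligodendrocyte genes had 8 CS-only of 23 CS peaks (34.8%) at equal length and 1 of 23 in the full lists.

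**Figure D4:**
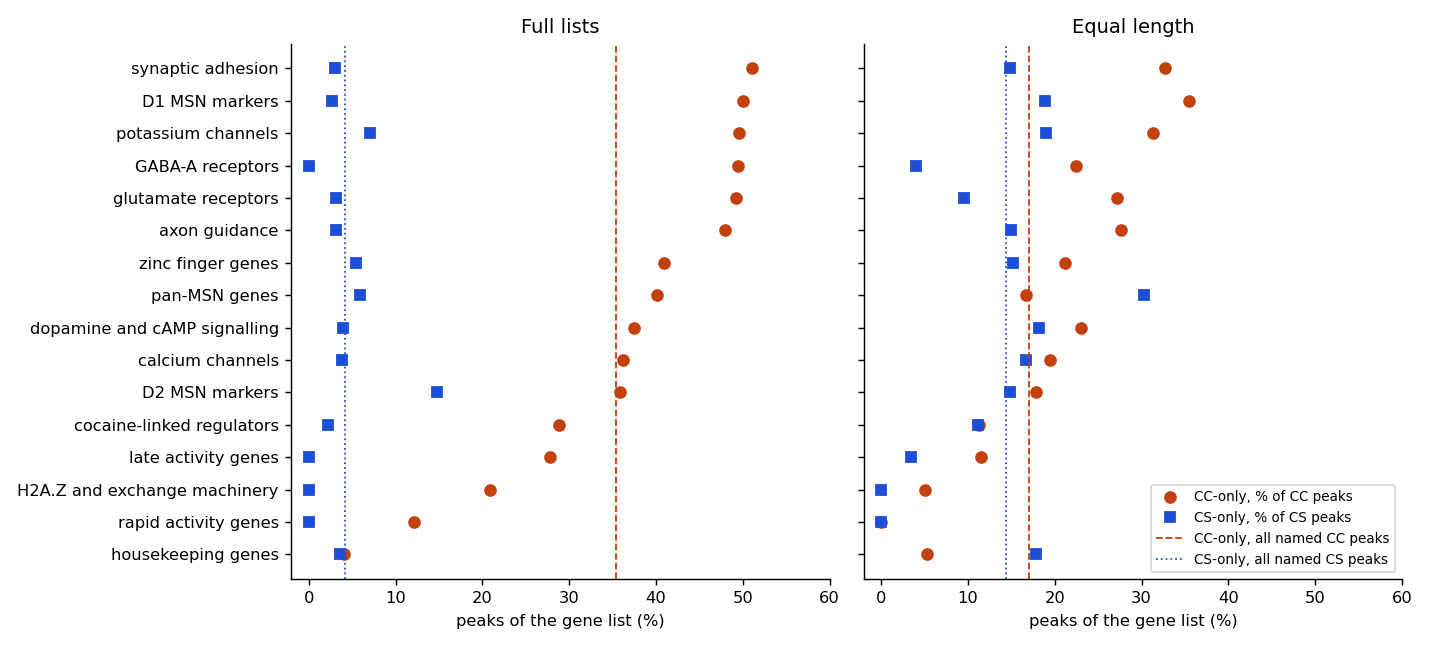
Percentage of CC peaks that are CC-only (circles) and of CS peaks that are CS-only (squares) in 16 gene lists, in full lists (left) and at equal length (right); vertical lines give the share over all peaks with a gene name. In full lists synaptic adhesion genes reach 51.1% CC-only against 35.3% of all named peaks, and at equal length the pan-MSN genes reach 30.3% CS-only against 14.4% of all named peaks; where a circle is hidden, as for rapid activity genes at equal length (both 0), the square covers it.

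Promoters under CC-only peaks held fewer CpG than promoters open in both lists, as do Capsl and Herc6 among the sequences printed above, but not Henmt1. Of 32619 RefSeq promoter windows, 649 touched a CC-only and 110 a CS-only peak, 12698 touched peaks of both lists and 18536 touched none. The median number of CpG was 8 under CC-only and 16 under CS-only peaks, against 23 under peaks of both lists, 3 under none and 7 over all windows. The median GC content was 53.3% under CC-only and 62.3% under CS-only peaks, against 62.7% under peaks of both lists. At least 10 CpG were held by 44.2% of the windows under CC-only and 65.5% of those under CS-only peaks, against 88.7% under peaks of both lists. At equal length, windows under CC-only peaks (216) had a median of 7 CpG and those under CS-only peaks (455) one of 18.

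**Figure D5:**
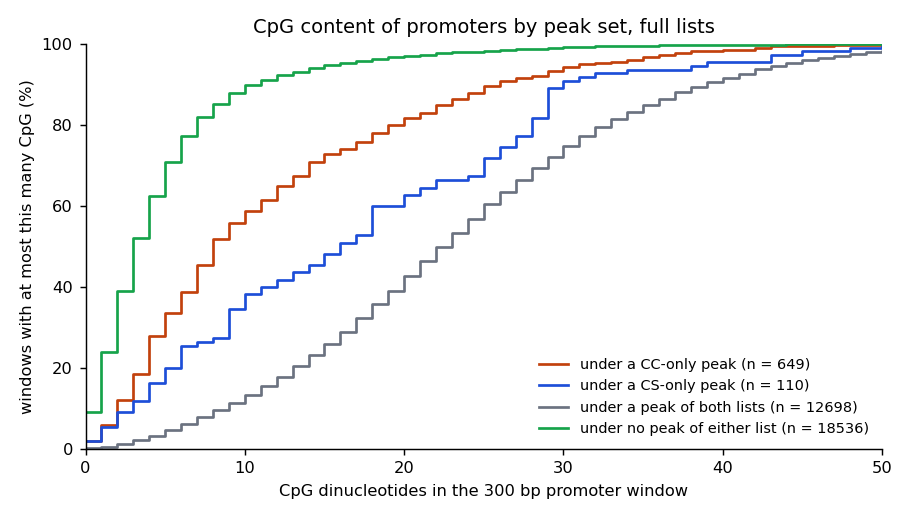
Cumulative percentage of RefSeq promoter windows (from 250 bp before to 50 bp after the start) by their number of CpG dinucleotides, for windows under CC-only peaks, CS-only peaks, peaks of both lists and no peak, in full lists. The CC-only curve (median 8 CpG) lies between the curves of windows under no peak (3) and under CS-only peaks (16), and windows under peaks of both lists hold the most (23).

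Short motifs in these windows were counted on both strands as letters, with no regard to binding. The GC box GGGCGG stood in 40.1% (36.3 to 43.9%) of windows under CC-only and 59.1% (49.3 to 68.4%) of those under CS-only peaks, against 68.0% under peaks of both lists and 35.9% of all windows. The shares at equal length were 33.8% under CC-only and 61.98% under CS-only peaks. The ETS motif CCGGAA stood in 10.48% of windows under CC-only and 7.27% under CS-only peaks, against 28.7% under peaks of both lists and 15% of all, and at equal length in 13.4% under CC-only and 12.3% under CS-only peaks. The AP-1 motif TGANTCA, where N is any base, ran the other way. It stood in 12.3% (9.90 to 15.1%) of windows under CC-only and 3.64% (1.00 to 9.05%) of those under CS-only peaks, against 4.13% under peaks of both lists, 10.3% under none and 7.85% of all. At equal length it stood in 13.4% (9.18 to 18.7%) under CC-only and 5.05% (3.23 to 7.49%) under CS-only peaks. The Arpp21 window printed above holds this motif, but outside the stretch that the CC-only peak covers. The CRE letters TGACG, which also lie within the full site TGACGTCA, stood in 14.6% under CC-only and 11.8% under CS-only peaks, against 33.5% under peaks of both lists and 20.9% of all. This order turned at equal length, with 15.7% under CC-only and 18.02% under CS-only peaks. CCAAT stood in 32.2% under CC-only and 37.3% under CS-only peaks, against 38.0% under peaks of both lists, and here too the order turned at equal length, with 33.8% under CC-only and 27.0% under CS-only peaks. TATAAA stood in 10.6% under CC-only and 8.18% under CS-only peaks, against 5.62% under peaks of both lists, and at equal length in 9.72% under CC-only and 6.59% under CS-only peaks. These shares move with the GC content given above, and its part in them was not tested.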

How the data were processed

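Peak lists of 8 groups were deposited, 1 per group, with coordinates counted from 1. The submitters' processing notes name cutadapt, HISAT, SAMtools, MACS2 and the build mm10, with no roles or versions, and do not say if the libraries of a group were merged before peak calling. Each peak has a fold enrichment (a ratio over background) and a q-value, both made by the authors and used as deposited, and the region class, distance to the TSS and gene that the authors assigned. The lists hold 0 columns per library. Depth per library is therefore unknown.

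Peaks on chromosomes 1 to 19 and X were compared with Python 3.11.15, numpy 2.4.6, pandas 2.3.3 and scipy 1.17.1, and drawn with matplotlib 3.10.9. Shared peaks have at least 1 bp in common. Peaks of 1 list lie more than 1 kb from any peak of the other. Promoter windows came from RefSeq. Named genes are those with the highest folds (10 over all classes and 6 at promoters in each direction, also 6 at promoters at equal length, and 5 shared), the 10 with most CC-only or CS-only peaks, and members of the 22 gene lists. The groups, members and lists were chosen with earlier results of these data known. The code recovered 1000 of 1000 simulated peaks when tested on simulated data. Alternatives changed the overlap, gap, q-value limit, list length, promoter limit and chromosomes. No test between groups was made, since a group has 1 list. Some genes that the rule would name are not reported here.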

Additional observations from a re-analysis of the deposited data

Results flagged for a closer look

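Signal also lay outside the chromosomes compared. On chromosome Y the CC list had 33 peaks and the CS list 26. On patch and unplaced sequences the CC list had 208 peaks and the CS list 189. These peaks entered no comparison.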

How the results depend on the processing

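The promoter share of CC-only peaks stayed below that of CS-only peaks, and the median distance of CC-only peaks above that of CS-only peaks, under each alternative run. The sizes moved as follows, and except where fewer peaks or another limit set them by construction, the cause was not tested. With a reciprocal overlap of 50%, 40.7% of CC peaks were found in CS and 64.7% of CS peaks in CC, CC-only peaks made up 59.3% and CS-only peaks 35.3%. Promoter shares were then 20.1% (CC-only), 29.2% (CS-only) and 47.0% (shared CC), the CC-only median distance was 17130.5 bp, 6477 genes had a CS-only peak, and at equal length both sets made up 41.6%. With q of at most 1e-05, 54.5% of CC and 95.9% of CS peaks were found, CC-only peaks made up 41.6% (19.1% at equal length) and CS-only peaks 2.73%. Promoter shares were 16.2% (CC-only) and 44.9% (shared CC), the CC-only distance was 21122 bp, and 738 genes had a CS-only peak. At equal length by q-value, 76.5% of CC and 83.0% of CS peaks were found, and the sets made up 20.7% (CC-only) and 14.6% (CS-only). Promoter shares were 13.6% (CC-only) and 43.4% (shared CC), the CC-only distance was 24476 bp, 3790 genes had a CC-only and 3727 a CS-only peak, and 1308 were named in CC and not in CS. With the 20000 peaks of lowest q, 83.8% of CC and 84.9% of CS peaks were found, and the sets made up 15.9% (CC-only) and 14.6% (CS-only). Promoter shares were 21.6% (CC-only), 36.9% (CS-only) and 61.3% (shared CC), the distances were 12165 bp (CC-only) and 3547.5 bp (CS-only), 1598 genes had a CC-only peak, and 1024 were named in CC and not in CS. At equal length by fold, 72.1% of CC and 78.3% of CS peaks were found, and the sets made up 25.6% (CC-only) and 18.8% (CS-only). Promoter shares were 11.8% (CC-only) and 35.2% (CS-only), the distances were 27541 bp (CC-only) and 5484.5 bp (CS-only), 4122 genes had a CC-only and 4486 a CS-only peak, and 1508 were named in CC and not in CS. With any peak that does not touch the other list counted, CC-only peaks made up 44.9% (23.5% at equal length) and CS-only peaks 6.44%, with promoter shares of 17.9% (CC-only) and 29.0% (CS-only) and a CC-only distance of 19420 bp. With a gap of 5 kb, CC-only peaks made up 34.5% (18.1% at equal length) and CS-only peaks 3.26%, with a CC-only promoter share of 14.0% and distance of 24311.5 bp. With promoters within 1 kb, the promoter shares were 8.03% (CC-only), 17.2% (CS-only) and 35.4% (shared CC). Without chromosome X each share and median distance stayed within its counting interval. The gene counts, which have no interval, were then 8102 with a CC-only peak, 1345 with a CS-only peak and 3045 named in CC and not in CS. No paired analysis was possible because the lists hold no column per library, and for the same reason no library could be left out. Read depth per library is unknown, so what depth limits in each list was not tested.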

Other observations

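Chromosome X had a lower CS-only share than any autosome, while its CC-only share was near the highest of single autosomes. CC-only peaks made up 43.9% (41.5 to 46.2%) of the 1781 CC peaks on X and 39.7% of those on autosomes. CS-only peaks made up 1.20% (0.619 to 2.08%) of the 1004 CS peaks on X and 4.44% of those on autosomes. At equal length the shares were 25.4% (23.0 to 28.0%) on X and 20.6% on autosomes for CC-only peaks, and 5.18% (3.89 to 6.74%) on X and 14.8% on autosomes for CS-only peaks. The sex of the animals is not given in the sources used here. Among autosomes, the CC-only share ran from 33.8% on chromosome 11 to 44.3% on chromosome 1, and the CS-only share from 3.17% on chromosome 3 to 5.51% on chromosome 11. At equal length the CC-only share ran from 15.4% on chromosome 7 to 25.1% on chromosome 3. The CS-only share then ran from 11.3% on chromosome 3 to 18.1% on chromosome 11.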
